A study of Mus musculus with 2 samples.

Results

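The cells described here were the Kit-positive cells with stem or progenitor markers found in spleens of wild-type mice. They were 82 of 11692 analysed cells, or 0.701% (exact 95% binomial interval 0.558 to 0.870%, which covers counting error only). A cell was a member if it held at least 1 unique molecular identifier (UMI, 1 counted RNA molecule) of Kit, at least 1 UMI of Meis1 or Cd34, and no UMI of Ncr1, Klre1, Car1 or Cd79a. The members were thus selected on UMIs of these 7 genes in the same cells, whose levels are given as a description. The study profiled natural killer (NK) cells by droplet-based single-cell sequencing of the 3′ ends of polyadenylated RNA (10x Genomics, v3.1 kit). All mice belonged to 1 group with the genotype wild-type, and the labels name no treatment. The sources used here give no strain, age or sex. NK cells had been enriched by negative selection, in which antibodies against the T and B lineages, erythroid cells, granulocytes, macrophages and dendritic cells hold those cells on a magnet, so cells that carry none of the targeted antigens pass with the NK cells. Cells of different mice had been combined by lipid tagging, and 3 tags (tag 1, tag 2 and tag 3) were found in the 1 library analysed here.

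Blood stem and progenitor cells carry Kit, the receptor tyrosine kinase for stem cell factor, whose signal keeps these cells and mast cells alive. Meis1 is a homeodomain factor of stem and early progenitor cells that acts with the Hoxa proteins. Cd34 encodes a surface sialomucin of many progenitors. Most blood formation in an adult mouse takes place in bone marrow, and the spleen holds a small number of progenitors that can give rise to blood cells outside the marrow. Kit is also carried by some dendritic, innate lymphoid and mast cells, which is why the members were examined cell by cell.

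The members held a median of 11516 UMIs (4052 to 29711), against 4201 over all analysed cells. Tag 1 gave 22 members, tag 2 gave 31 and tag 3 gave 29, which is 0.612%, 0.736% and 0.747% of the analysed cells of each tag, or 0.698 ± 0.0751% (SD, n = 3 tags). The labels do not tie a tag to a mouse, so p-values measure only how far the tags differ among themselves, and that spread may be technical. Levels are in CPM, the count of a gene scaled to the total gene UMIs of the cells in question. Before the exclusions, 310 cells carried Kit with Meis1 or Cd34. Of these, 228 were left out: 162 held Ncr1 (31 of them a single UMI), 151 held Klre1 (33 a single UMI), 79 held Car1 (25 a single UMI) and 4 held Cd79a (3 a single UMI). On the other side of the gate, 121 cells had Kit with neither Meis1 nor Cd34 and 113 cells had Meis1 or Cd34 without Kit. Without the requirement for exactly 1 tag the gate held 89 barcodes, of which 6 carried several tags and 1 carried none. Pairs of cells under the same tag remain in these data.

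Of the 82 members, 27 held both Meis1 and Cd34, 53 held Meis1 alone and 2 held Cd34 alone. Kit (chr5:75574916-75656722 on the plus strand, GENCODE M21 on the mouse build mm10) stood at 310.3, 262 and 245 CPM in tags 1 to 3. A single Kit UMI was found in 28 members and 2 or more in 54, with a maximum of 17. Meis1 (chr11:18879817-19018985, minus strand) stood at 482, 354 and 456 CPM, with a median of 3 UMIs per member and a maximum of 35, and 26 members held exactly 1. Cd34 (chr1:194938819-194961279, plus strand) stood at 101, 89.0 and 55.3 CPM and was found in 29 members. In 7 members the assignment rested on 1 UMI of Kit and 1 of Meis1.

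Several stem and progenitor genes were found together in a portion of these cells only. Each member was scored by how many of 20 stem and progenitor genes it expressed, taking those listed genes that stayed under 5 CPM in both NK cells and B cells (among them Hlf, Mecom, Hoxa9, Erg, Gata2, Tal1, Mycn, Adgrg1 and Itga2b). It was also scored by the share of its UMIs taken by Cd74, H2-Aa and H2-Ab1, the invariant chain and both chains of an MHC class II molecule. With the thresholds chosen after the values were seen, 49 members expressed 4 or more of the stem genes and are called stem-gene-rich, 20 devoted at least 1% of their UMIs to MHC class II and are called MHC class II-rich, and 13 did neither. No member did both. The stem gene score does not single out progenitors: 48 of 97 erythroid precursors (Car1 and Klf1 present) also expressed 4 or more of the genes. The stem-gene-rich members expressed 4 to 13 of the 20 genes (median 6) and had a median MHC class II share of 0.0130% (highest 0.541%). The MHC class II-rich members expressed 0 to 3 of the genes (median 0), with a share of 1.08 to 4.72% (median 2.74%). Around the thresholds, 6 members expressed 3 of the genes and 10 expressed 4, and the MHC class II shares nearest to 1% were 0.839% and 1.08%. The 49 stem-gene-rich cells made up 63.6%, 54.8% and 62.1% of the members of tags 1 to 3, or 0.389%, 0.404% and 0.463% of all analysed cells of those tags. Their number depended on depth: after each member was thinned to 4000 UMIs, 26 cells still had 4 or more of the genes.

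**Figure D1:**
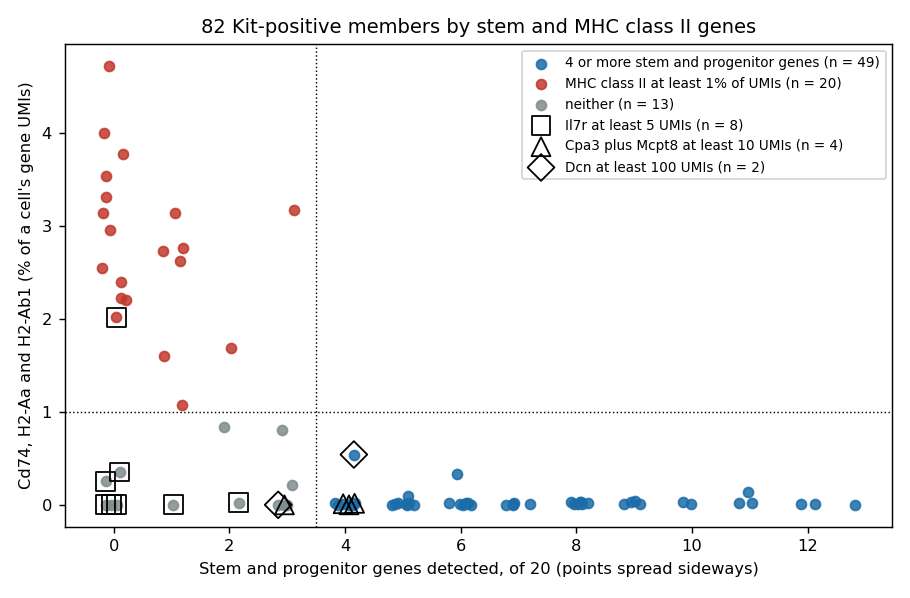
Each point is 1 of the 82 members, placed by the number of 20 stem and progenitor genes it expressed (horizontal axis, points spread sideways to part them) and by the percent of its gene UMIs from Cd74, H2-Aa and H2-Ab1 (vertical axis). Dotted lines mark the thresholds of 4 genes and 1%, colours mark the 49, 20 and 13 cells, and open symbols mark members with many Il7r, Cpa3 plus Mcpt8 or Dcn UMIs. The upper right field is empty: the cell with the most MHC class II among those with 4 or more stem genes stands at 0.541%.

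The stem-gene-rich members expressed factors that define the stem and early progenitor state in mouse marrow. Levels in this paragraph and the next are for these 49 cells together, as a description, since the genes of the score chose them. Hlf, a leucine-zipper factor used as a mark of blood stem cells, was found in 20 of 49 cells at 114 CPM, and Mecom, a zinc-finger factor needed to maintain stem cells, in 21 cells at 128 CPM. Erg, an ETS factor of stem cells and megakaryocytes, was found in 38 cells, Gata2 in 36 and Tal1, the bHLH partner of Gata factors, in 31. None of Hlf, Mecom, Erg or Tal1 had a UMI in the 20 MHC class II-rich members, and Gata2 had 1 there. Hoxa9 was in 19 and Hoxa7 in 17 of the 49 cells. Prdm16, a factor of the most immature stem cells, was seen in 5 cells and Procr, the protein C receptor that marks marrow stem cells, in 8.

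Genes outside the score also differed in level between the kinds. Sox4, an HMG-box factor of progenitors, stood at 572 CPM in stem-gene-rich members and 64.5 CPM in MHC class II-rich ones, and Lmo2, the bridging protein of the Tal1 complex, at 478 and 41.8 CPM. Angpt1, a secreted ligand of the Tek receptor that immature blood cells also make, was found in 48 of 49 stem-gene-rich cells at 1508 CPM and in 2 of 20 MHC class II-rich cells at 7.59 CPM. Cdk6, the cyclin-dependent kinase that governs the exit of stem cells from rest, was found in 48 of the 49 cells. Cd34 had UMIs in 24 of the 49 stem-gene-rich cells and in 0 of the 20 MHC class II-rich cells. The median Meis1 count was 6 UMIs in stem-gene-rich cells and 1 in MHC class II-rich cells, of which 15 held exactly 1. Flt3, the receptor of multipotent and dendritic progenitors, had the opposite order: 100 CPM in 17 of 49 stem-gene-rich cells and 349 CPM in 18 of 20 MHC class II-rich cells. The median UMI count was 12874 in stem-gene-rich and 12075 in MHC class II-rich cells.

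Lineage genes were thinly spread over the stem-gene-rich cells. Counting only listed genes under 5 CPM in NK and B cells, 32 of the 49 held at least 1 UMI of a myeloid gene, 26 of a megakaryocyte or erythroid gene, 12 of a mast, basophil or eosinophil gene and 6 of a lymphoid gene. Il1rl1, of the mast, basophil and eosinophil list, is also a gene of the stem score, so the choice of cells can raise that list's count. Both a myeloid and a megakaryocyte or erythroid gene were present in 18 cells, and 5 cells held none of the 4 kinds. With at least 3 UMIs of each list required, the overlap of the first 2 lists was 4 cells. The myeloid signal was led by Prtn3, a granule protease of early neutrophil and monocyte precursors, found in 28 of 49 cells (107 UMIs), while Mpo, myeloperoxidase, was in 10, Ctsg in 5 and Elane in 0. Among lymphoid genes, Dntt, the terminal transferase of early lymphoid progenitors, was in 4 cells with 37 UMIs, and Rag1 and Rag2, the recombinase of B and T cell precursors, had 0 UMIs in all 82 members. Gata1, the master factor of erythroid cells and megakaryocytes, was in 4 of the 49 cells and Epor, the erythropoietin receptor, in 5. Members with Car1 had been excluded by the gate, so erythroid-leaning progenitors are under-represented by construction: 123 cells before the exclusions expressed 4 or more stem genes, and 54 of the 74 removed carried Car1.

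**Figure D2:**
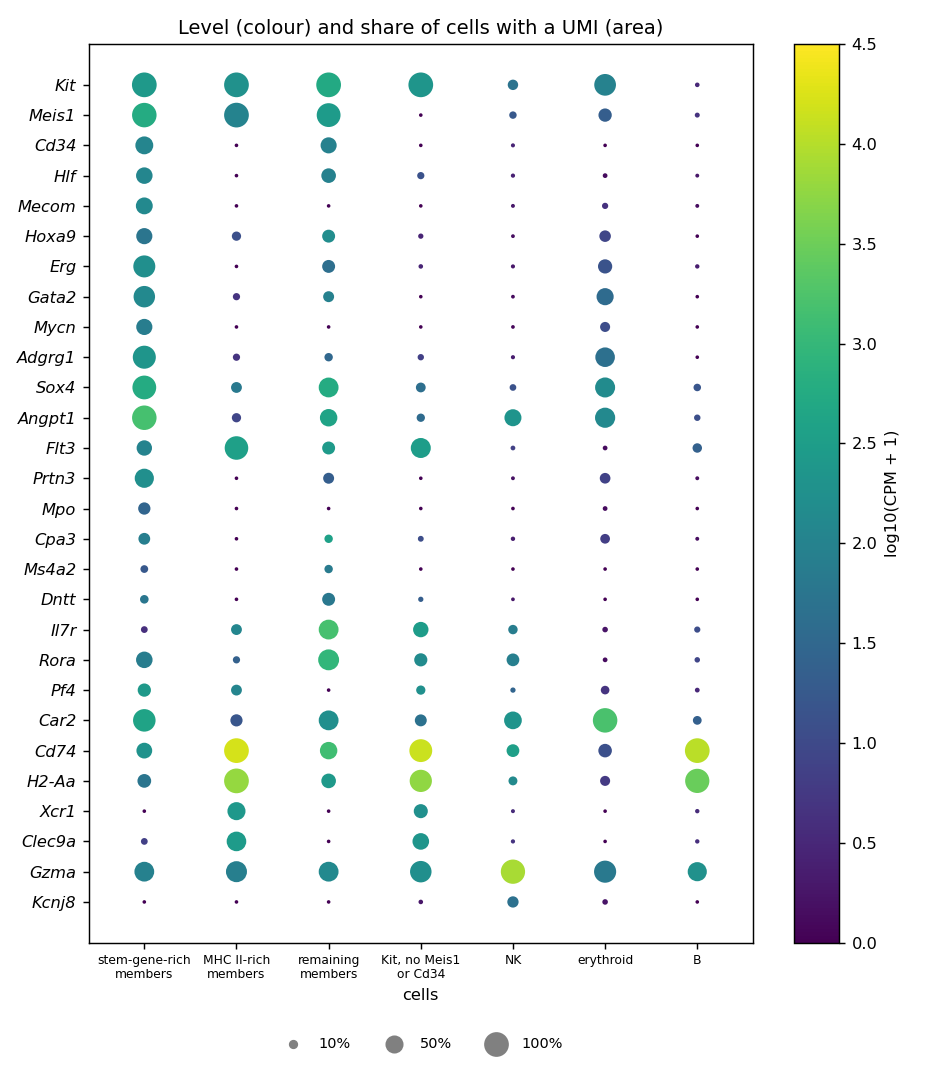
Colour gives the level as log10(CPM + 1) and area the percent of cells with at least 1 UMI for 28 genes (rows) in the 3 kinds of member, in cells with Kit but no Meis1 or Cd34, and in NK cells, erythroid precursors and B cells (columns). Hlf through Adgrg1 are present in the first column, some of them in a minority of its cells, and are nearly empty in the second. Cd74 and H2-Aa are higher in the second column than in the first, and the cells with Kit alone resemble the second column for Cd74 and H2-Aa. Kit, Meis1 and Cd34 chose the members, and Hlf to Adgrg1, Cd74 and H2-Aa chose the kinds.

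The 20 MHC class II-rich members carried genes of conventional dendritic cells, the antigen-presenting cells that prime T cells. Xcr1, the chemokine receptor of the cross-presenting subset, was found in 10 of 20 cells at 254 CPM, against 0 of 49 stem-gene-rich cells. Clec9a, a receptor of that subset for dead cells, was in 12 of 20 at 285 CPM, against 2 of 49 at 6.15 CPM. Irf8, a factor of dendritic and monocyte fate, stood at 767 CPM, against 12.3 CPM. Leaving out Cd74, H2-Aa and H2-Ab1, which chose these cells, the other 5 conventional dendritic markers (Xcr1, Clec9a, Cd209a, Itgax and Zbtb46) summed to 744 CPM in MHC class II-rich members and 20 CPM in stem-gene-rich members. All 20 cells entered through Meis1 and none through Cd34, 14 held 2 or more Kit UMIs, and 6 held a single UMI of Kit and of Meis1. Of the 121 cells with Kit but neither Meis1 nor Cd34, 81 (66.9%) were MHC class II-rich and 2 were stem-gene-rich, with Flt3 at 303 CPM and Xcr1 at 174 CPM. Among the 113 cells with Meis1 or Cd34 but no Kit, 8 were MHC class II-rich and 22 were stem-gene-rich.

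Within the members, small sets of cells also stood apart, each picked after its values were seen. At least 5 Il7r UMIs were held by 8 members (8 to 49 UMIs), which together carried 169 of the 175 Il7r UMIs of all members, and no other member held over 2. Il7r encodes the receptor chain for interleukin 7, used by lymphoid precursors, T cells and innate lymphoid cells. Of these 8 cells, 7 belonged to neither kind and 1 was MHC class II-rich, and they expressed 0 to 2 stem genes. Among the 9 listed markers of innate lymphoid cells, they held 89 of 145 UMIs of Rora, 23 of 27 of Gata3 and 7 of 8 of Cxcr6. They held only 37 of 295 UMIs of Tmem176b, another of those markers, and Il22 and Areg had 0 UMIs in all members. All 8 held Tcf7, a factor of T and innate lymphoid cells. Cd3d, a chain of the T cell receptor complex, was found in 1 of the 8. Other T cell markers were more widespread: Trbc2, a constant region of the T cell receptor beta chain, was in 5 of the 8 (38 of the 47 UMIs in all members) and Cd4, a T cell coreceptor also found on some innate lymphoid cells, in 3 (12 of 13). Most of the Il7r signal was from tag 2, at 134, 356 and 7.90 CPM in tags 1 to 3.

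Mast and basophil genes were concentrated in 4 members with at least 10 UMIs of Cpa3 and Mcpt8 together, 3 of them stem-gene-rich and 1 in neither kind. Cpa3 is a mast cell carboxypeptidase and Mcpt8 a basophil protease. The 4 cells held 10 to 50 such UMIs, or 94 of the 109 found in members, with no other member over 4. They held 2 to 17 Kit UMIs, the upper value being the highest of any member, and 144 of 154 Gzmb UMIs and 16 of 17 UMIs of Ms4a2, a chain of the high-affinity IgE receptor. Fcer1a, another chain of that receptor, and Prss34, a basophil protease, had 0 UMIs in all members. Pf4, platelet factor 4, was similarly uneven, with 7 members (6 of them stem-gene-rich) holding 5 to 126 UMIs, or 186 of 199, and 21.0, 409.5 and 86.9 CPM in tags 1 to 3. Dcn, the matrix protein decorin made by fibroblasts, was concentrated in 2 members with 1 Kit UMI each, which held 250 of the 254 UMIs. The cell with 135 UMIs was stem-gene-rich, and the cell with 115 UMIs was in neither kind. Averages over members for these genes are set by those few cells.

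Among the 20 genes with the highest ratio of members to all other analysed cells (20 CPM added to both, gate genes left out) were Prkg1, Dach1, Sox4, Ifitm1, 2610307P16Rik, Mctp1, Cacnb2, Myct1, Lmo2, Adgrg1, Egr1, Cdk6, Erg, Prtn3, Adgrg3, Gcnt2, Slc8a1 and Adgrl4. Most were carried by the stem-gene-rich cells. Prkg1, a cGMP-dependent kinase, stood at 482 CPM in stem-gene-rich members and 3.80 CPM in MHC class II-rich ones, and Dach1, a transcriptional cofactor, stood at 395 and 3.80 CPM. Mctp1, Cacnb2 and Slc8a1 ran against that order, at 345, 152 and 125 CPM in stem-gene-rich cells and 884, 323 and 896 CPM in MHC class II-rich cells. Mctp1 encodes a calcium-binding membrane protein, Cacnb2 a calcium channel subunit and Slc8a1 a sodium-calcium exchanger. Thinned to 2500 UMIs per cell, Erg was found in 25.6% of members and 0.245% of B cells, where any UMI may be free RNA, and Prtn3 in 14.6% and 0%. Both genes are named here for a high ratio to other cells, and both were under 5 CPM in B cells by the rule of their lists. Their low shares in B cells follow from that choice and are a description. All 82 members reached that depth, and 408 of 463 B cells did.

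The members were next compared with 7755 NK cells of the same tags (Ncr1 and Klre1 present, Car1 and Cd79a absent) by edgeR's quasi-likelihood test on UMI sums per tag, with Benjamini-Hochberg adjustment over all genes tested. Both classes were cut from the same cells by gate genes, which were left out of the test, so differences in genes that go with them are built in and are not evidence that the members are a cell type. Of 12303 genes tested, 36.8% were called at an adjusted p under 0.05: 2200 (17.9%) higher and 2332 (19.0%) lower in members. NK cells were shallower, with a median of 4152 UMIs. Among 24 tested stem and multipotent progenitor factors, 19 were higher and 3 lower (Mllt3, Fli1 and Gfi1), with a median log2 fold change of 4.46 beside -0.10 over all genes tested. Among 22 tested surface and signalling genes of progenitors, 17 were higher and 3 lower (Cd48, Cd9 and Cxcr4), with a median of 3.83. A gene can pass the filter on low counts through the class where it is high, so the counts over tested genes are a description.

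Sox4 stood at 629, 404 and 358 CPM in members of tags 1 to 3, against 12.0, 15 and 10.7 CPM in NK cells (log2 fold change 5.09 ± 0.18, SE, adjusted p = 2.08e-14). Every member value was above every NK value, and among members tag 1 was highest and tag 3 lowest. Lmo2 stood at 310.3, 376 and 308 CPM in members, against 3.68, 2.85 and 4.26 CPM in NK cells (6.47 ± 0.21, adjusted p = 5.36e-15). Gata2 stood at 113, 66.1 and 111 CPM, against 0.753, 0.130 and 0.267 CPM in NK cells, where it was near the floor of detection (7.94 ± 0.51, adjusted p = 2.26e-10). Flt3 stood at 222, 173 and 166 CPM in members, against 7.44, 5.64 and 6.75 CPM in NK cells (4.74 ± 0.22, adjusted p = 1.56e-12). The groups did not overlap for any of these genes. How many of all tested genes did not overlap was not counted, and 36.8% of them were called by edgeR, so this does not set these genes apart. Runx1, a factor of both stem and lymphoid cells, overlapped: 742, 547 and 714 CPM in members, against 714, 637 and 619 CPM in NK cells (adjusted p = 0.713). Fli1, an ETS factor that NK cells also use, was lower, at 201, 229 and 261 CPM in members, against 428, 435 and 438 CPM in NK cells (-0.98 ± 0.13, adjusted p = 4.76e-06).

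**Figure D3:**
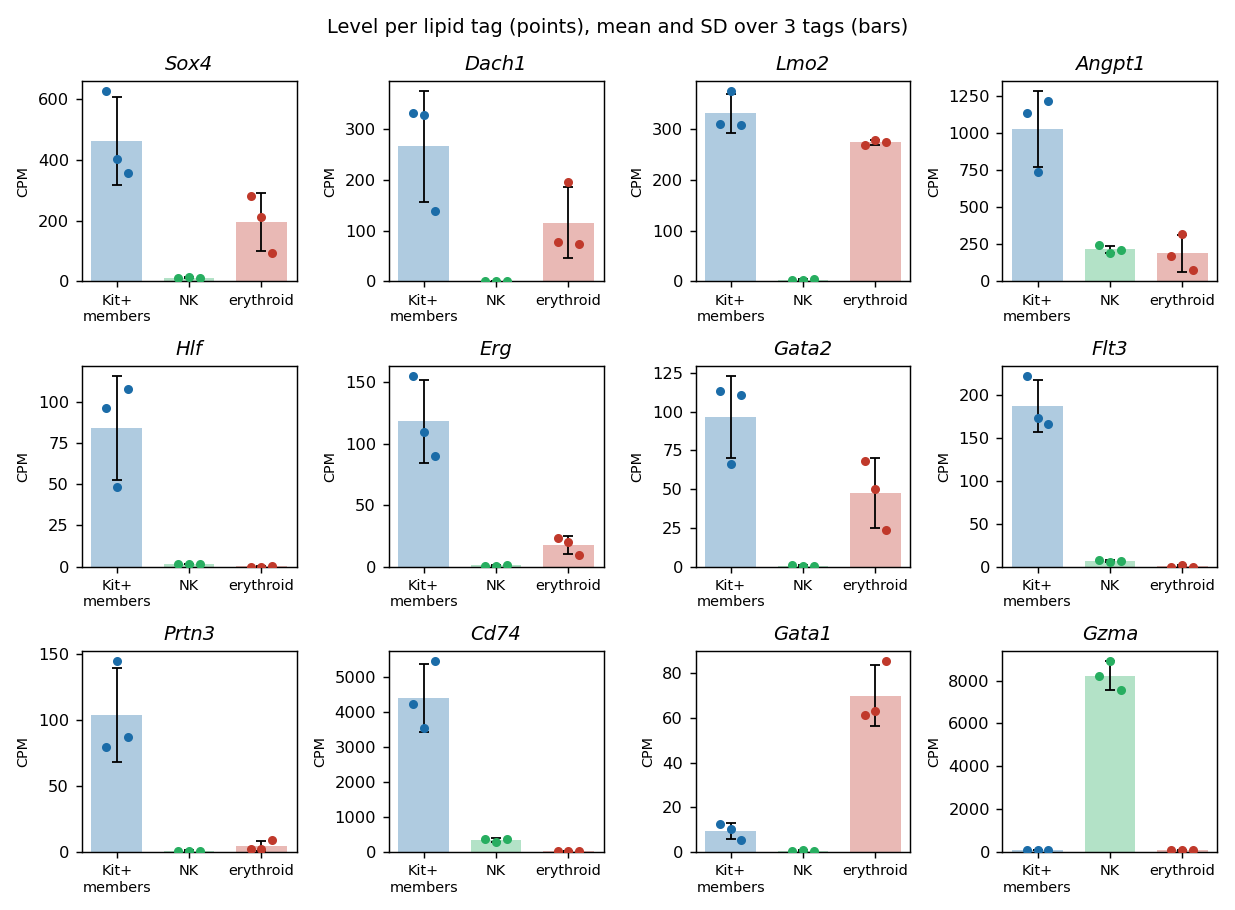
CPM of 12 genes in the Kit-positive members, NK cells and erythroid precursors. Points are the 3 tags, bars the mean and whiskers the SD over tags. Hlf, Erg, Flt3 and Prtn3 are high in members, Sox4, Dach1 and Lmo2 are high there and also present in erythroid precursors, Gata1 is high in erythroid precursors and Gzma in NK cells; Cd74 in members comes mainly from the 20 MHC class II-rich cells.

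Among the 10 genes most raised in members over NK cells were Plac8, Ifitm1, Ifitm2, Lmo2, Sox4, Dach1, Prkg1, Egr1 and Cd74. Plac8, a small protein of myeloid and progenitor cells, stood at 1589, 1033 and 817 CPM, against 38.8, 26.5 and 41.7 CPM in NK cells (4.91 ± 0.17, adjusted p = 1.25e-14). Ifitm1, an interferon-induced membrane protein expressed in stem cells without interferon, stood at 801, 262 and 229 CPM in members, tag 1 being highest, against 6.44, 5.0 and 3.91 CPM in NK cells (6.15 ± 0.22, adjusted p = 2.62e-14). Egr1, an immediate early factor of stem cells and many other cells, stood at 788, 331 and 545 CPM, against 34, 21.2 and 20.8 CPM in NK cells (4.33 ± 0.16, adjusted p = 4.51e-14). Cd74 had a log2 fold change of 3.62 ± 0.09 over all members and -0.0901 without the MHC class II-rich cells, where the adjusted p was 0.687. Those cells were chosen partly on Cd74, so its fall without them follows from the choice and is given as a description. Of the 5 conventional dendritic markers that did not choose them, 4 were called higher over all members and 0 without those 20 cells. Without those 20 cells, 16.7% of genes were called higher and 19.6% lower. The other marker, Itgax, was called lower in both fits and in stem-gene-rich members alone. The count of stem and multipotent factors called higher was 19 of 24 without those 20 cells too.

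The 10 genes most lowered in members were the gene model Gm2682, Gzma, Klra4, Ms4a4b, Klrb1c, Ccl5, Klra8, Prf1, Skap1 and Klra7. All 8 tested NK markers were lower, which the exclusion of Ncr1 and Klre1 favours. Prf1, the pore-forming protein of cytotoxic granules, stood at 8.39, 7.63 and 7.90 CPM in members, against 792, 765 and 695 CPM in NK cells (-6.62 ± 0.21, adjusted p = 5.92e-15). Gzma, granzyme A, stood at 101, 91.6 and 86.9 CPM, against 8207, 8919.5 and 7553 CPM in NK cells (-6.55 ± 0.09, adjusted p = 2.11e-20). The Gzma and Ccl5 left in members did not exceed the level in B cells, which do not make these proteins: after thinning, Gzma was found in 26.8% of members and 37.5% of B cells, and Ccl5 in 41.5% and 64.2%. Nkg7, a granule membrane protein, had the opposite order, in 39.0% of members and 18.4% of B cells after thinning. Before thinning it was found in 44 of the 49 stem-gene-rich cells and 9 of the 20 MHC class II-rich cells, which cannot be set beside the thinned shares. Median depths before thinning were 11516 UMIs in members and 3677 UMIs in B cells, so members were thinned more strongly. The Klra genes are close copies of each other, so counts of a single one are uncertain. Kcnj8, which encodes the Kir6.1 channel subunit named in the study's title, had 0 UMIs in 82 members, against 44.3 CPM in NK cells, which is at least 14.9-fold lower if members are set at 3 UMIs over the group.

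The second comparison was with 97 erythroid precursors (Car1 and Klf1 present, Ncr1, Klre1 and Cd79a absent), tested in the same way. Of 5681 genes tested, 52.4% were called: 1576 (27.7%) higher and 1399 (24.6%) lower in members. Erythroid precursors were deeper, with a median of 30796 UMIs, and 58 of the 97 came from tag 3. Of these 97 cells, 48 expressed 4 or more of the 20 stem genes, so genes of the score were present on both sides. Among 20 tested stem and multipotent factors, 13 were higher in members and 3 lower (Gfi1b, Myb and Zfpm1), with a median log2 fold change of 2.07 beside 0.03 over all genes tested. All 15 tested surface and signalling genes were higher (median 2.59). Csf2rb, 1 of them, had 0 UMIs in erythroid precursors and could not come out lower. Here too a gene can pass the filter through the class where it is high, so counts over tested genes are a description. All 12 tested megakaryocyte and erythroid genes were lower (median -3.59), which the exclusion of Car1 favours, and Ermap among them had 0 UMIs in members. The platelet and megakaryocyte genes Pf4, Vwf, Gp9, Gp1bb and Itgb3 of that list were not among the 12. In stem-gene-rich members alone, 10 of 14 were lower and Pf4 was higher, beside 1075 and 1200 of 5043 genes. Itga2b, a platelet and megakaryocyte marker counted among the 15, was higher in members (3.63).

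Hlf stood at 96.4, 48.3 and 108 CPM in members, against 0, 0 and 0.542 CPM in erythroid precursors (7.31 ± 0.56, adjusted p = 4.53e-07). Mecom stood at 62.9, 73.8 and 103 CPM in members, against 14.1, 6.55 and 0 CPM (4.29 ± 0.68, adjusted p = 1.76e-04). Spi1, the ETS factor of myeloid and lymphoid fate that opposes Gata1, stood at 151, 117 and 134 CPM, against 14.1, 8.74 and 7.05 CPM (3.76 ± 0.32, adjusted p = 8.48e-07). These factors were low in erythroid precursors in every tag. Lmo2 and Tal1, which work in both settings, did not pass the test over all members: Lmo2 stood at 310.3, 376 and 308 CPM in members and 268, 279.6 and 274 CPM in erythroid precursors (adjusted p = 0.447), and Tal1 stood at 71.3, 53.4 and 79.0 CPM in members and 66.0, 69.9 and 91.1 CPM in erythroid precursors (adjusted p = 0.358). Lmo2 was called higher without the MHC class II-rich members (log2 fold change 0.53, adjusted p = 0.0148 by edgeR) and in stem-gene-rich members alone (0.65, adjusted p = 0.00491), and Tal1 in neither. Gfi1b, a repressor needed by erythroid cells and megakaryocytes, was lower, at 16.8, 10.2 and 21.1 CPM in members, against 87.2, 98.3 and 64.0 CPM (-2.43 ± 0.37, adjusted p = 1.14e-04). Myb, a factor of proliferating progenitors, was also lower, at 159, 229 and 234 CPM, against 408, 618 and 305 CPM (-1.14 ± 0.21, adjusted p = 6.50e-04).

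The 10 genes most raised over erythroid precursors were Cd74, H2-Eb1, H2-Aa, H2-Ab1, Cd52, Tmsb4x, Cst3, Plek, Mctp1 and S100a4. The first 4 are genes of MHC class II presentation, and 3 of them (all but H2-Eb1) chose the MHC class II-rich cells. Without those cells the log2 fold change was 4.52 for Cd74, against 8.45 over all members, 3.66 for H2-Eb1, against 8.63, 3.98 for H2-Aa, against 8.35, and 1.69 for H2-Ab1, against 5.84. In stem-gene-rich members alone, Cd74 (3.85) and H2-Ab1 (1.47) were still called, and H2-Eb1 and H2-Aa were not tested. Cst3, the protease inhibitor cystatin C, had a log2 fold change of 1.15 without those cells, against 4.20 over all members. Tmsb4x, an actin-binding peptide abundant in white blood cells, stood at 8004, 10237 and 9729 CPM in members, against 542, 572 and 340.0 CPM (4.20 ± 0.15, adjusted p = 3.97e-10). Plek, an adaptor of platelets and white blood cells, stood at 389.9, 244 and 485 CPM, against 2.35, 0 and 4.88 CPM (6.74 ± 0.33, adjusted p = 1.50e-08). The most lowered were Slc25a21, Hba-a1, Mt1, Hbb-bs, Mt2, Blvrb, Ermap, C1qtnf12, Tspo2 and Rhd, among them genes of globins, metallothioneins and red cell membrane proteins. Hba-a1, an alpha globin, stood at 0, 17.8 and 0 CPM in members, against 40.0, 120.1 and 909.5 CPM, with tag 3 far above the others on the erythroid side (-5.67 ± 0.69, adjusted p = 2.14e-05). Globin genes have near-identical copies, so counts of a single one are uncertain. Ermap, a red cell blood-group protein, had 0 UMIs in members, against 158, 209.7 and 201 CPM, at least 65.9-fold lower with members at 3 UMIs over the group.

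Biosynthesis genes lay, by their medians, between NK cells and erythroid precursors. Of 16 tested biosynthesis genes, covering ribosome assembly, translation and Myc targets, 14 were higher than in NK cells (median log2 fold change 0.88), where 17.9% of all genes were, and all 16 were lower than in erythroid precursors (median -1.22), where 24.6% of all genes were. Npm1, a chaperone of ribosome assembly, stood at 1501, 1549 and 1441 CPM in members, 542, 548 and 568 CPM in NK cells and 3349, 3416 and 3866 CPM in erythroid precursors. The 3 classes did not overlap for Npm1, and how many of all genes did not overlap was not counted. Myc stood at 83.9, 99.2 and 145 CPM in members, against 19.6, 18.6 and 24.0 CPM in NK cells (2.33 ± 0.22, adjusted p = 6.59e-08). Of 28 cell division genes, 12 were higher than in NK cells and 3 lower, with a median of 0.56 and 17.9% and 19.0% of all genes called in those directions. The 12 were led by genes of DNA replication such as Mcm3, Mcm5, Mcm7, Tyms and Uhrf1, together with Cdk1, Stmn1 and the tubulin genes Tubb5 and Tuba1b. Against erythroid precursors, 27 of the 28 were lower (median -1.63, with 24.6% of all genes called lower), and Mcm3, a subunit of the replication helicase, was the exception at an adjusted p of 0.0502. Mki67, which marks cycling cells, stood at 54.5, 45.8 and 18.4 CPM in members, 44.4, 38.0 and 43.1 CPM in NK cells and 198, 139.8 and 268 CPM in erythroid precursors. It was found in 19 of 82 members, 18 of them stem-gene-rich. Ccnb1, a cyclin of mitosis, had 0 UMIs in members, a level that allows up to 2.97 CPM.

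**Figure D4:**
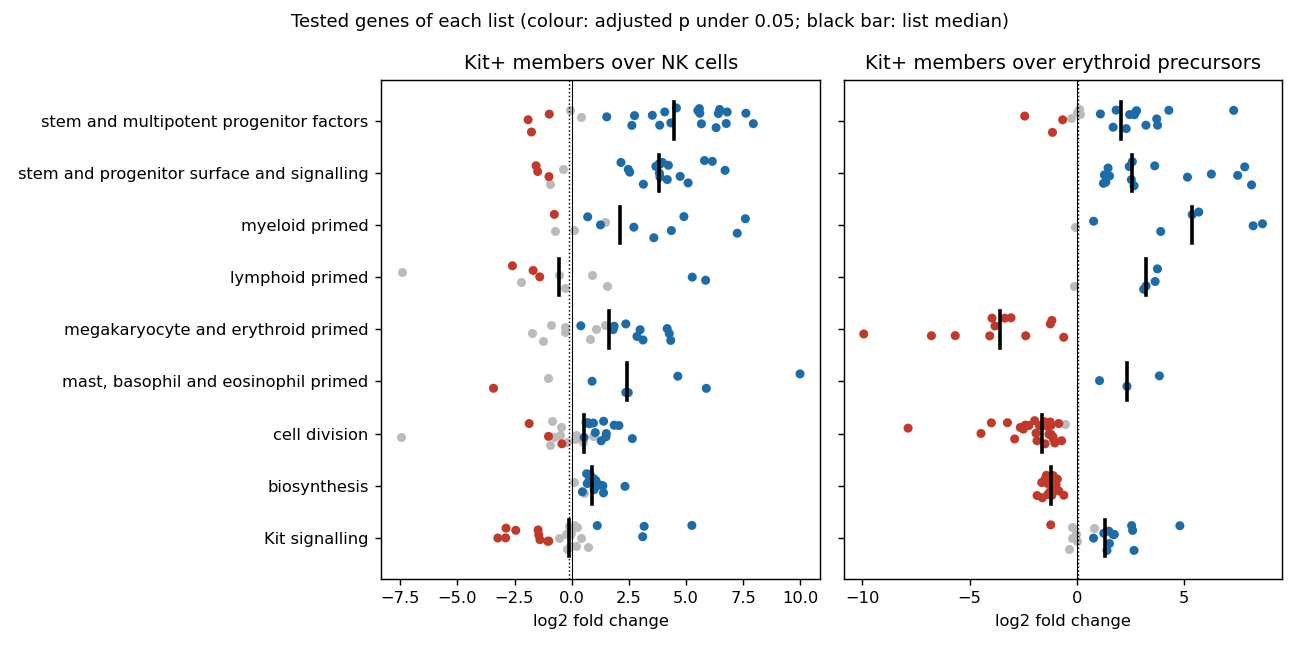
Log2 fold change of each tested gene in 9 lists, for Kit-positive members over NK cells (left) and over erythroid precursors (right). Coloured points passed an adjusted p of 0.05, blue higher and red lower in members, grey points did not; black bars are list medians and the dotted line is the median of all tested genes. By its median, the biosynthesis list lies right of 0 on the left panel and left of 0 on the right panel. All tested megakaryocyte and erythroid genes lie left of 0 on the right panel. On the left panel their median is 1.63, and Gp1bb, Rhd, Cpox, Hba-a1 and Slc14a1 lie left of 0. Genes with 0 UMIs in one class are drawn at their fitted value, which is not a bound.

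The other lineage lists held fewer testable genes. Against NK cells, 8 of 12 tested myeloid genes were higher and Irf8 was lower, where 17.9% of all genes were called higher. Without the MHC class II-rich members 6 of the 12 were higher, Ly86 and Clec12a no longer passing, and the median log2 fold change was 0.63, against 2.10 over all members. Of 18 megakaryocyte and erythroid genes, 10 were higher than in NK cells and 0 lower. Of 8 mast, basophil and eosinophil genes, 6 were higher, and most UMIs of Cpa3, Mcpt8 and Hdc came from the 4 cells above. Hdc, the histamine-forming enzyme, stood at 83.9, 0 and 2.63 CPM in members, and its fold change turned to -1.37 without tag 1. Of 11 lymphoid genes, 2 were higher (Dntt and Bcl11a) and 3 lower, with a median of -0.57, or -0.29 with Ebf1, at 0 UMIs in members, set at its bound. Bcl11a, a factor of early lymphoid cells and a globin switch regulator, stood at 184, 275 and 298 CPM in members, 4.85, 2.85 and 5.06 CPM in NK cells and 254, 290.5 and 225 CPM in erythroid precursors. It was high in members and erythroid precursors alike. Against erythroid precursors, 6 of 7 myeloid, 4 of 5 lymphoid and 3 of 3 mast, basophil and eosinophil genes were higher and 0 lower, where 27.7% of all genes were called higher. Ly86 and Clec12a had 0 UMIs in erythroid precursors, so they entered the test through members and could not come out lower. These counts are a description. Without the MHC class II-rich members the myeloid count was 3 of 4, as Irf8, Ly86 and Clec12a were no longer tested, and the median log2 fold change was 2.63, against 5.38 over all members (25.5% of genes were called higher in that fit). In stem-gene-rich members alone, 1 gene of the mast, basophil and eosinophil list, Srgn, was tested and called higher.

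Downstream of Kit, 26 signalling genes were tested against NK cells, and 4 were higher (Gab1, Src, Jak2 and Plcg1), 9 were lower and 13 did not pass (17.9% and 19.0% of all genes were higher and lower), with a median log2 fold change of -0.10. Without the MHC class II-rich members 3 were higher and 11 lower (median -0.38), where 16.7% and 19.6% of all genes were. In stem-gene-rich members alone 2 of 25 were higher (Gab1 and Plcg1) and 11 lower (median -0.48), beside 1874 and 2486 of 11963 genes. Fyn, a Src-family kinase of lymphocytes, stood at 105, 96.7 and 97.5 CPM in members, against 684, 720.1 and 667 CPM in NK cells (-2.87 ± 0.14, adjusted p = 2.38e-12). Cblb, a ubiquitin ligase that limits receptor signalling, stood at 62.9, 83.9 and 89.6 CPM, against 426, 425 and 399 CPM (-2.44 ± 0.16, adjusted p = 3.31e-10). Both were lower in members of every tag. Gab1, an adaptor of receptor kinases, was found at 12.6, 25.4 and 26.3 CPM in members, against 0.0836, 1.23 and 0.355 CPM (5.25 ± 0.65, adjusted p = 2.27e-06). Against erythroid precursors, which also depend on Kit early in their development, 11 of 18 were higher, 1 was lower (Stat5a) and 6 did not pass, with a median of 1.33. Over all genes of that comparison, 27.7% were called higher and 24.6% lower. Lyn, a Src-family kinase that binds Kit, stood at 197, 323 and 329 CPM in members, against 51.8, 54.6 and 33.6 CPM in erythroid precursors (2.60 ± 0.26, adjusted p = 3.38e-06); its level was 596 CPM in MHC class II-rich and 191 CPM in stem-gene-rich members. Inpp5d, the lipid phosphatase SHIP1, stood at 285, 338 and 337 CPM, against 44.8, 59.0 and 41.2 CPM (2.67 ± 0.21, adjusted p = 5.25e-07).

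Markers of other cell types moved with the members, and their part in the results was not tested beyond the values without the MHC class II-rich cells and in stem-gene-rich members alone. Summed over each list, the 8 T cell markers stood at 105 CPM in members and 13.9 CPM in stem-gene-rich members, with Cd3e at 0. The 7 B cell markers stood at 16.8 and 16.9 CPM, with Cd79a (excluded by the gate), Ebf1, Ighd and Pax5 at 0, against 8345 CPM in B cells. The 6 neutrophil markers stood at 9.89 and 13.9 CPM, with S100a8, Ly6g, Retnlg and Ngp at 0 in members. The 7 endothelial markers stood at 167 and 174 CPM, and 3 of them were at 0 in stem-gene-rich members. The 9 markers of innate lymphoid cells stood at 819 and 454 CPM, with Il22 and Areg at 0, and the 6 plasmacytoid dendritic markers at 433 and 468 CPM, of which Tcf4 and Bst2 are also expressed by many other cells. The 6 mural and fibroblast markers stood at 314 and 283 CPM, and Dcn alone was at 251 CPM over all members. Among single stem-gene-rich cells these 6 markers had a median of 0 CPM and a highest value of 9803 CPM.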

How the data were processed

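The authors deposited raw UMI counts of 16384 barcodes over 32285 genes with 3 lipid tags, and these counts were used unchanged. Per the file headers, Cell Ranger 7.0.0 wrote them. Seurat and the build mm10 are named besides Cell Ranger, per the submitters' processing notes. The sources used here give neither the annotation nor the treatment of intronic reads. The labels list 2 samples of 1 group, of which 1 was not analysed here.

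A filter of 500 to 6000 genes and up to 10% mitochondrial UMIs left 15742 barcodes, and those with exactly 1 tag over its cutoff (140, 196 and 138 UMIs for tags 1 to 3) were analysed: 11692, with 3597, 4210 and 3885 per tag. Another 3540 held several tags and 510 none. The tag filter was the only treatment of doublets. Tags served as 3 replicates, paired across classes since they share a tagged pool. They hold 18554783, 23060242 and 22404924 gene UMIs.

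UMI sums per tag and class were tested with edgeR 4.0.16 (quasi-likelihood, TMM, its filter on low counts, tag as block, Benjamini-Hochberg threshold 0.05) in R 4.3.3. The code was checked on simulated counts. Cells were thinned to 2500 UMIs where shares were compared. DESeq2 1.42.0, other gates, filters and left-out tags were alternatives. Intervals are exact binomial. Levels and folds use 3 UMIs as the floor. Named genes were the 10 highest and 10 lowest by ratio among those called and alike in all 3 tags, the 20 leading genes of the members, and listed genes. Members and lists were chosen with earlier results of these data known, and the 2 kinds of member, with the small sets of cells, after their values were seen. Promoter and protein sequences were not used here. A few genes that these rules picked are not reported here.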

Additional observations from a re-analysis of the deposited data

How the results depend on the processing

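The share of members among analysed cells moved with the gate. It was 0.462% with at least 2 Kit UMIs (54 cells), 0.231% with Meis1 and Cd34 both required, 0.565% over all barcodes past the filter, 0.285% with the gate applied after thinning to 2500 UMIs, and 0.222% with Cd3e, Cd3d, Cd3g, Gzma and Klrb1c also at 0. It ranged from 0.679 to 0.741% with each tag left out. The number of stem-gene-rich members was 26 after thinning to 4000 UMIs, 55 with 3 and 39 with 5 genes required. Against NK cells, DESeq2 called 1547 genes lower, and sums thinned to 2500 UMIs gave 743 higher and 1242 lower. With each tag left out, 1643 to 1699 were higher and 1658 to 1844 lower. Against erythroid precursors, DESeq2 called 971 higher and 779 lower, and thinned sums gave 199 and 129 of 901 tested. Leaving out each tag gave 1133 to 1527 higher and 961 to 1435 lower, both lowest without tag 3. Thinning leaves fewer genes to test. The remaining causes were not tested. Without the replicate block, 2392 genes were higher and 2666 lower than in NK cells, and 1602 and 1449 against erythroid precursors.

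Single genes called in either of the fits compared changed sign against NK cells: Cd74 at -0.0901 without the MHC class II-rich members and -1.02 in stem-gene-rich members alone, Lyn at -0.46 and -0.47 in the same fits, Il7r at -4.79 in stem-gene-rich members, Hdc at -1.37 without tag 1 (-1.37 to 3.46 with each tag left out), and Ube2c at 1.03 and Hspd1 at -0.44 after thinning. Another 84 sign changes, over 34 gene results, were of genes called in neither fit, among them Il7r at -0.68 without tag 2 (its adjusted p was 8.90e-19 without tag 3, at 1.89) and Lyn at -0.0286 after thinning. The fits without the MHC class II-rich members, with stem-gene-rich members alone and the thinning to 4000 UMIs were chosen after seeing the data. Of 20 genes chosen by rank in each comparison, all kept their direction and call in the other settings in which they were tested, apart from Cd74 against NK cells.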
